A study of Mus musculus with 21 samples.

Results

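The genes described here encode the proteins of the cytosolic ribosome. They are the rows of the count table typed as protein_coding whose gene name is Rpl or Rps followed by a digit, leaving out names that begin with Rps6k (kinases) or contain -ps (pseudogenes). The rule kept 86 genes of 78317 rows, 51 named Rpl for the large subunit and 35 named Rps for the small subunit. It also kept Rps19bp1, which encodes a binding protein of Rps19 and no ribosomal subunit, and the retrogene-type rows Rps23rg1, Rps27rt, Rpl27rt and Rpl35rt. It left out structural genes with other names, such as Rplp0 and Rpsa, which are counted separately at the end. RNA was sequenced from E14 cells, an established line of mouse embryonic stem cells, in 21 libraries that formed 7 groups of 3. The ES group was kept in standard culture without treatment. The other cells received either vehicle or pyridoxine, the vitamin B6 form used here (VB6), at 20 µM, and were collected after 3, 5 or 7 days. The title of the series names endoderm differentiation, glycolysis and histone lactylation as its subject. No genetic change is named in the labels. Nothing in them ties replicates to separate cultures, and p-values therefore measure the spread between libraries, which may be technical.

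The cytosolic ribosome reads mRNA and joins amino acids, its small subunit decoding the message and its large subunit forming the peptide bond. Its proteins are made in near equal numbers, their mRNAs are among the most abundant of a growing cell, and most begin with a terminal oligopyrimidine (TOP) tract through which mTORC1 and LARP1 control their translation. Several have paralogs that are used in few tissues, among them Rpl10l and Rpl39l in the male germ line and Rpl3l in striated muscle. Many also have processed pseudogenes of nearly the same sequence, so that short reads can be shared between a gene and its copies.

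Libraries held 15882380 to 21629730 expected counts. The median fragment length implied by the deposited values was 221.5 to 238.0 nt in the 3 vehicle day 5 libraries and 261.1 to 275.8 nt in the 3 VB6 day 7 libraries, against 303.7 to 316.0 nt in the other 15. These 6 libraries are called the short-fragment libraries, and fragment length and group cannot be told apart in them. The 7 embryonic stem cell markers found, of 8 searched, summed to 4363 to 4703 CPM (counts scaled to the same library total) in ES, 376 to 403 CPM in vehicle day 7 and 255 to 298 CPM in VB6 day 7. The 6 endoderm markers summed to 21.6 to 27.8 CPM in ES, 1401 to 1479 CPM in vehicle day 7 and 1570 to 2101 CPM in VB6 day 7. The 6 fibroblast markers summed to 23.2 to 28.8 CPM in ES, 418 to 590 CPM in vehicle day 7 and 441 to 700 CPM in VB6 day 7. Most of the day 7 sums came from Col1a1 and Col1a2, with means of 188 and 319 CPM in vehicle and 158 and 356 CPM in VB6. Postn was at 10.4 and 30.4 CPM there. Thy1 went down from 19.0 CPM in ES to 4.25 and 3.05 CPM, and Dcn and Lum had means under 1 CPM at day 7. The 4 blood markers stayed under 1 CPM in every library. The labelled cell type, embryonic stem cells, was matched by its markers in ES, and these were lower in each later group. In bulk RNA, fewer cells of a type and less RNA per cell cannot be told apart.

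Ribosomal protein genes took up 4.99 to 6.78% of the counts in 5 groups and a smaller share in the short-fragment groups. The share was 5.38%, 5.97% and 6.78% in the ES libraries, 6.08%, 5.55% and 5.54% in vehicle day 3, and 6.50%, 6.47% and 6.25% in VB6 day 3. In vehicle day 5 it was 3.12%, 3.17% and 3.41%, against 6.14%, 5.78% and 5.15% in VB6 day 5. In vehicle day 7 it was 4.99%, 5.65% and 5.41%, against 3.25%, 3.04% and 3.19% in VB6 day 7. The libraries of vehicle day 5 and VB6 day 7 thus lay below every other library, without overlap. At day 5 the VB6 libraries were higher by 2.46 percentage points, and at day 7 they were lower by 2.19 (exact two-sided permutation test, p = 0.1 in both, the smallest that 3 against 3 libraries allow). At day 3 the VB6 libraries were higher by 0.683 percentage points and did not overlap with vehicle (exact permutation test, p = 0.1). The VB6 day 5 libraries were lower by 0.719 percentage points than those of VB6 day 3, also without overlap (exact permutation test, p = 0.1). ES and vehicle day 3 differed by less than the spread between replicates (6.04% ± 0.706 against 5.73% ± 0.309, SD, n = 3; exact permutation test, p = 0.7).

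By TPM, the balance of the subunits followed the same division. The log2 ratio of summed TPM (a level per transcript length, scaled to the same total in every library) of the Rps genes over the Rpl genes was -0.307 ± 0.0309 in ES, -0.312 ± 0.00506 in vehicle day 3, -0.310 ± 0.00523 in VB6 day 3, -0.315 ± 0.008 in VB6 day 5 and -0.306 ± 0.0158 in vehicle day 7 (SD, n = 3 each). It was -0.409 ± 0.0167 in vehicle day 5 and -0.415 ± 0.0046 in VB6 day 7. The means of the 5 other groups thus ran from -0.315 to -0.306, and every library of the short-fragment groups lay below every other library. The differences of VB6 from vehicle were 0.0937 at day 5 and -0.109 at day 7 (exact permutation test, p = 0.1, the smallest possible). TPM divides counts by an effective length, which depends on fragment length among other things. Rps20 had 759 to 1015 CPM in VB6 day 5 and 568 to 614 in vehicle day 5. Its TPM was 787 to 973 and then 1776 to 1893. Rps27 had 165 to 213 and then 107 to 115 CPM, and 4445 to 4786 and then 1386 to 1623 TPM. The part of effective length in the balance was not tested, and no balance of counts is given here.

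**Figure D1:**
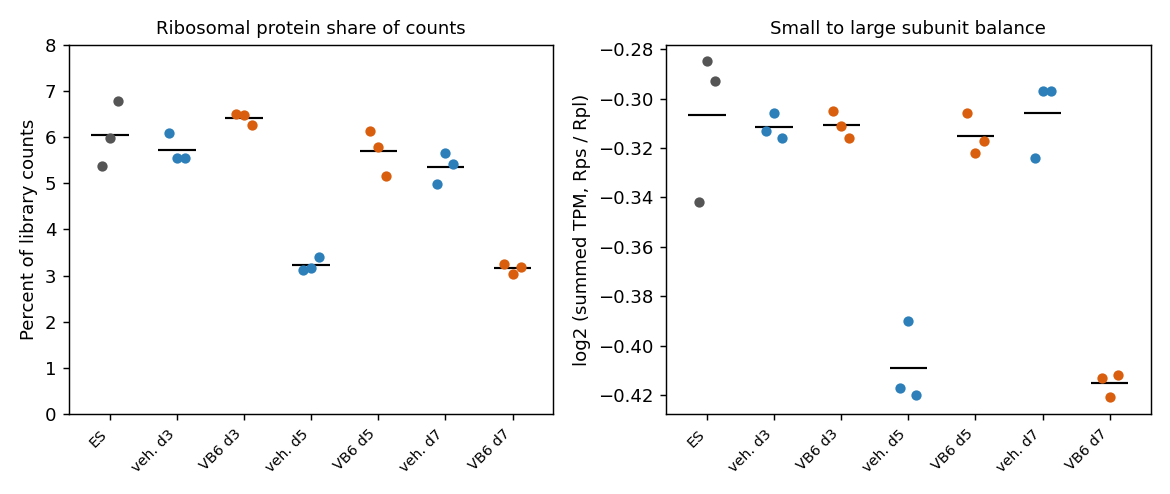
Left, percent of each library's counts in the 86 genes; right, log2 ratio of summed TPM of Rps over Rpl genes. Points are libraries (grey ES, blue vehicle, orange VB6) and lines are group means; vehicle day 5 and VB6 day 7 lie below all other groups in both panels.

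By TPM the genes spread widely around a median of 1958 in ES and 1194 in vehicle day 5. Rpl23a was the highest in ES (6999 ± 690 TPM), vehicle day 3 (6807 ± 402), VB6 day 3 (7638 ± 205), VB6 day 5 (7856 ± 546) and vehicle day 7 (7201 ± 389), and its product sits beside the exit of the peptide tunnel. In the short-fragment groups Rpl13a was the highest instead, at 4374 ± 461 TPM for vehicle day 5 and 5006 ± 178 TPM for VB6 day 7. Rpl23a stood there at 2984 ± 318 and 3615 ± 176 TPM (SD, n = 3). By CPM, which is not divided by length, Rpl13a was above Rpl23a in every library. In VB6 day 5 these were 1724, 1626 and 1499 CPM against 1715, 1564 and 1364. In vehicle day 5 they were 901, 892 and 1023 CPM against 606, 586 and 695. Over all libraries Rpl23a, Rpl13a and Rps24 had the highest means (6157, 5543 and 5163 TPM). The lowest were Rpl3l, Rpl27rt and Rps23rg1, with means of 0.913, 1.51 and 3.12 TPM. Between 59 and 61 genes reached 1000 TPM in the 5 groups with longer fragments, and 50 and 52 did so in vehicle day 5 and VB6 day 7. A gene with near-identical copies is uncertain in level, as described below.

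To see genes apart from the shared shift, each library was rescaled so that the median of the ribosomal protein genes was equal in all libraries, and levels on this scale are called CPM relative to the ribosomal protein median. The 82 genes with a mean of at least 100 counts set the median. Over the 5 groups with longer fragments most genes kept their place: of 81 genes with a mean of at least 10 CPM, 71 had an SD of the log2 group means under 0.15, and the median SD was 0.083. The scale was set by the ribosomal protein genes themselves, so part of this steadiness is built in. No SD of other genes is given here for comparison. The steadiest were Rps15a and Rpl37, both with an SD of 0.024, and Rpl27 with 0.031. Rps15a, a small subunit protein, had 400 to 452 relative CPM in the ES libraries, 429 to 445 in vehicle day 7 and 410 to 438 in VB6 day 5, and these groups overlapped. Of 17 genes listed for textbook roles, 15 (88.2%) had an SD under 0.15, as did 87.7% of all 81 genes. Rpl11, which with Rpl5 binds the p53 regulator Mdm2, had an SD of 0.034, Rps6, the substrate of the S6 kinases, 0.036, Rpl35a, mutated in Diamond-Blackfan anaemia, 0.044, Rpl38, which acts on Hox mRNA translation in the embryo, 0.065, and Rps3, at the mRNA entry of the small subunit, 0.074. The exceptions were Rps19, also mutated in Diamond-Blackfan anaemia, at 0.171, and Rpl5 at 0.3. Only Rpl39l and Rpl10l had an SD above 0.5, at 1.575 and 1.81, followed by Rps4l at 0.314.

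The change from ES to vehicle day 3 was small for most ribosomal protein genes. With edgeR's quasi-likelihood test over all 18901 genes and Benjamini-Hochberg adjustment, 85 of the 86 genes could be tested, and Rpl35rt, with a mean of 7.27 counts, could not. On the library scale (TMM normalization) 12 rose and 3 fell, or 17.6% called against 64.9% of all genes, and the median log2 change was 0.00 beside 0.01 over all genes tested. A correction for GC content and length raised the calls to 52 (61.2%, where 73.4% of all genes were then called), and leaving out ES replicate 1 or 3 raised them to 26 and 30. Relative to the ribosomal protein median 7 rose and 6 fell, or 15.3% of the genes, where 55.5% of all genes were called. Without ES replicate 1 this count was 23. For fits that leave out a library, the share of all genes called is not given here.

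The clearest rise was that of Rpl5, which forms the 5S particle with Rpl11. Its relative CPM was 95.4, 82.5 and 75.2 in ES and 149, 136 and 131 in vehicle day 3. All vehicle day 3 libraries lay above all ES libraries. The log2 fold change was 0.72 ± 0.10 (SE; edgeR, adjusted p = 1.55e-06). Rps12, a small subunit protein, went from 39.0, 34.7 and 35.8 to 54.1, 56.1 and 56.7 relative CPM without overlap (log2 change 0.61 ± 0.09 SE, edgeR adjusted p = 7.53e-06). Rps13 (0.43 ± 0.13, adjusted p = 0.006) and Rpl7l1, the paralog of Rpl7 (0.39 ± 0.11, adjusted p = 0.00433), rose too. For Rps13 the call was lost when near-identical copies were added, with a log2 change of 0.11 and edgeR adjusted p = 0.166. Its copies held 95.1% ± 0.559 of the counts of gene and copies in ES and 93.9% ± 0.316 in vehicle day 3 (SD, n = 3).

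Among the genes that fell, Rpl10l went from 64.3, 55.0 and 41.9 relative CPM in ES to 32.9, 42.6 and 36.4 in vehicle day 3, with 1 pair of libraries overlapping (log2 change -0.53 ± 0.13 SE, edgeR adjusted p = 0.00181). Rpl12, a protein of the large subunit stalk base, went from 131, 103 and 107 to 79.2, 87.4 and 94.1, without overlap (-0.39 ± 0.10, edgeR adjusted p = 0.00167). Rpl27rt fell by 1.43 on the log2 scale from a low level (2.62 to 0.964 relative CPM, edgeR adjusted p = 0.000823). Rpl22l1, the paralog of Rpl22, fell by 0.29 (edgeR adjusted p = 0.0193), but its libraries overlapped and the call was lost without ES replicate 2 or 3, or without vehicle day 3 replicate 2 or 3.

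**Figure D2:**
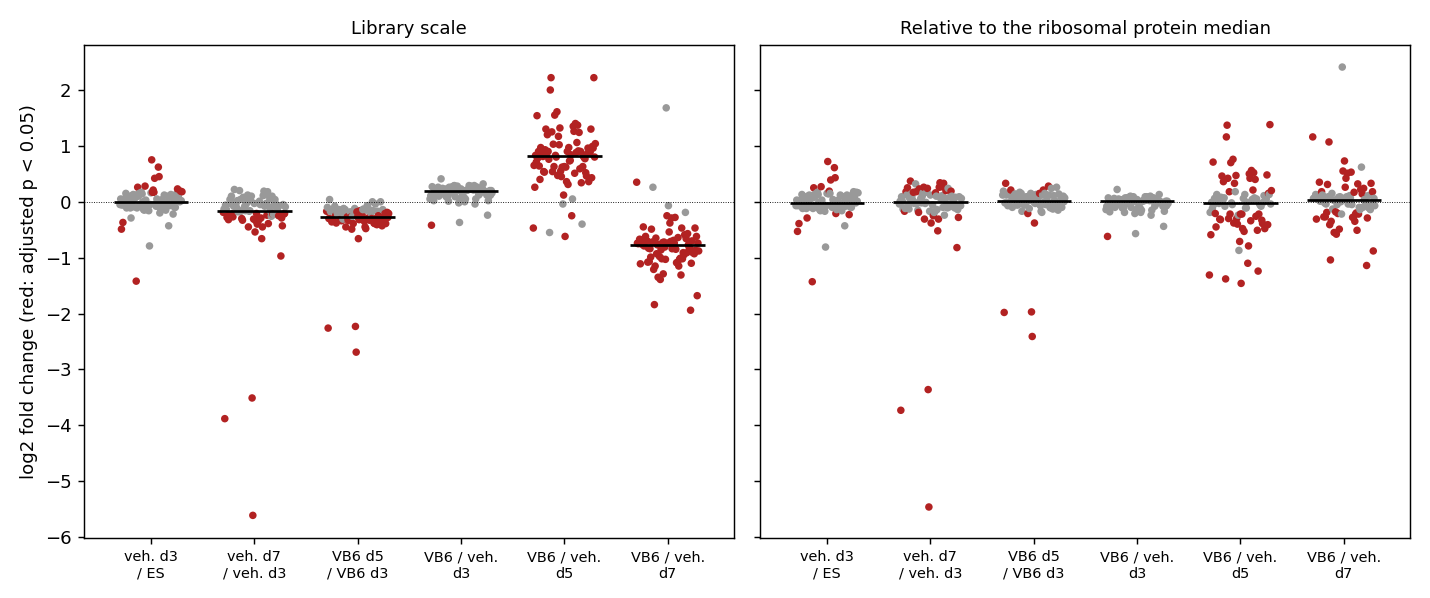
Log2 fold change of each of the 85 tested genes in the 6 comparisons, on the library scale (left) and relative to the ribosomal protein median (right); red points passed an adjusted p of 0.05 and black lines are medians. The medians on the library scale are 0.81 and -0.77 for VB6 against vehicle at days 5 and 7, and 3 genes lie far below the others in the comparisons across days.

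Across the days of culture, 3 paralogs stood far below the other genes. On the library scale no gene rose and 33 fell from vehicle day 3 to vehicle day 7 (38.8%, where 67.4% of all genes were called and 33.1% were called lower), with a median log2 change of -0.16. On the same scale 53 fell and none rose from VB6 day 3 to VB6 day 5 (62.4%, where 56.2% of all genes were called and 26.4% were called lower), with a median of -0.27 beside 0.02 over all genes. Without VB6 day 5 replicate 3 the 53 calls were 28. In neither comparison was a gene higher at an unadjusted edgeR p under 0.05 (0 of 85) or by DESeq2, and 36 and 57 were lower at that unadjusted p. Both medians were nearer 0 after the correction for GC content and length, at -0.03 and -0.07, with 16 genes higher and 32 lower in the first comparison and 12 higher and 24 lower in the second (75.7% and 63.7% of all genes called with the correction). Relative to the ribosomal protein median 15 rose and 12 fell from vehicle day 3 to day 7 (60.2% of all genes called), and 5 rose and 5 fell from VB6 day 3 to day 5 (50.7% of all genes called).

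Rpl10l, an autosomal copy that takes the place of X-linked Rpl10 in male meiosis, had 2.98, 2.70 and 2.71 relative CPM in vehicle day 7, against 32.9, 42.6 and 36.4 in vehicle day 3. Its log2 change was -3.73 ± 0.17 (SE; edgeR, adjusted p = 3.21e-15). In VB6 it went from 22.5, 24.5 and 25.8 at day 3 to 5.25, 6.53 and 6.73 at day 5 (-1.98 ± 0.15, edgeR adjusted p = 1.18e-10). Its relative group means fell from ES to vehicle day 3, VB6 day 3, vehicle day 5, VB6 day 5 and day 7. On that scale VB6 day 7 and vehicle day 7 did not differ beyond their spread (2.91 and 2.80).

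Rpl39l, a paralog of the tunnel protein Rpl39 that is found in sperm-forming cells, fell alongside it. It had 43.8, 47.4 and 44.6 relative CPM in ES and 42.7, 39.8 and 38.1 in vehicle day 3, and then 3.59, 3.60 and 4.51 in vehicle day 7. The fall from vehicle day 3 to day 7 was -3.36 ± 0.15 on the log2 scale, and that from VB6 day 3 to day 5 was -1.97 ± 0.13 (edgeR, adjusted p = 2e-15 and 1.47e-11). ES and vehicle day 3 were not called different for Rpl39l, and their libraries did not overlap. The summed embryonic stem cell markers were 4363 to 4703 CPM in ES, 2137 to 2375 in vehicle day 3, 2047 to 2103 in VB6 day 3, 768 to 791 in VB6 day 5, 576 to 609 in vehicle day 5, 376 to 403 in vehicle day 7 and 255 to 298 in VB6 day 7. For Rpl10l and Rpl39l the day 5 groups were in the reverse of this order on the relative scale only. The marker sums are on the library scale. There Rpl10l had 6.21, 5.7 and 5.71 CPM in vehicle day 5 and 6.54, 7.63 and 6.81 in VB6 day 5. Rpl39l had 7.34, 5.87 and 6.66 and then 12.2, 10.8 and 7.5, so both genes had the day 5 order of the sums. Single markers did not all follow the sum, and the part of the marker change in these results was not tested.

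Rpl3l, the muscle paralog of Rpl3, had 35, 52 and 38 counts in the ES libraries, 19, 23 and 24 in vehicle day 3 and 0, 0 and 1 in vehicle day 7. It passed the test between vehicle days 3 and 7 (edgeR adjusted p = 9.49e-06) and between VB6 days 3 and 5 (adjusted p = 0.00292), where counts went from 20, 29 and 7 to 1, 6 and 1. These counts are too few to give its fold. Rps4l, a relative of the X-linked Rps4x, fell by 0.82 ± 0.15 on the log2 scale from vehicle day 3 to day 7, with 193, 238 and 242 relative CPM at day 3 and 149, 111 and 121 at day 7 (edgeR adjusted p = 6.39e-05).

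The genes that rose relative to the median moved far less. From vehicle day 3 to day 7 the highest log2 changes were those of Rpl22l1 (0.37 ± 0.10), Rps15 (0.34 ± 0.06), Rps19 (0.33 ± 0.07) and Rps16 (0.27 ± 0.07), with edgeR adjusted p from 8.32e-05 to 0.00365. Rps15 and its neighbours in the small subunit head, Rps19 and Rps16, showed no overlap of libraries: Rps15 had 532, 518 and 534 relative CPM at day 3 and 666, 664 and 670 at day 7, and Rps19 had 513, 489 and 492 and then 590, 639 and 645. From VB6 day 3 to day 5 Rpl12 (0.33 ± 0.10), Rps2 (0.28 ± 0.07) and Rps15 (0.21 ± 0.06) rose, while Rpl5 fell by 0.38 and Rpl36al by 0.21, with edgeR adjusted p from 0.00260 to 0.0247. Under the correction for GC content and length the calls of Rps2, Rps15 and Rpl36al between these days were lost. The call of Rps15 was also lost with no filter and with only the 6 libraries compared, and that of Rpl36al with no filter, without VB6 day 3 replicate 1 or 3 and without any 1 of the VB6 day 5 replicates.

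Among ES and vehicle days 3 and 7, Rpl5 and Rps12 were highest at day 3. From vehicle day 3 to day 7 Rpl5 went back to 119, 101 and 99.6 relative CPM (-0.38 ± 0.10 SE, edgeR adjusted p = 0.0018) and Rps12 to 37.6, 40.3 and 38.5 (-0.52 ± 0.09 SE, edgeR adjusted p = 4.71e-05). For Rps12 the libraries of vehicle day 7 overlapped those of ES, and for Rpl5 they lay above them.

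**Figure D3:**
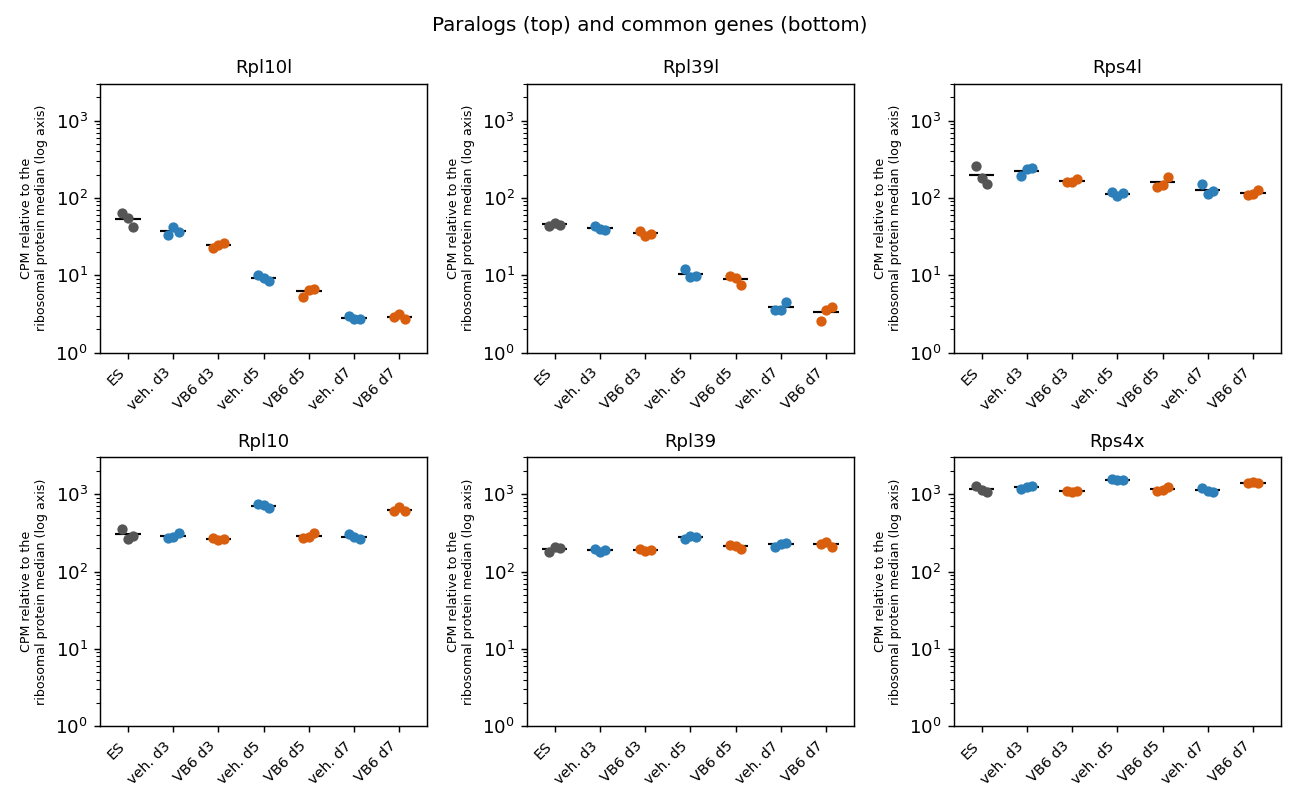
Relative CPM (log axis, the same range in all panels) of Rpl10l, Rpl39l and Rps4l and of the common genes Rpl10, Rpl39 and Rps4x by group; points are libraries and lines are group means. Rpl10l and Rpl39l go down from ES to day 7, while Rpl10 is higher in vehicle day 5 and VB6 day 7 than in the other groups.

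Set against their common partners, the paralogs showed how far these falls went. Near-identical copies of the partners are left out of these shares, which are therefore uncertain. In ES, copies held 62.7% ± 3.53 of the counts of Rpl10 and its copies, and 69.6% ± 1.01 for Rpl3 (SD, n = 3). With copies added, the shares of Rpl10l and Rpl3l would be smaller. Rpl10l made up 9.62% ± 1.56 of the TPM of the pair Rpl10l and Rpl10 in ES, 7.25% ± 1.03 in vehicle day 3, 1.30% ± 0.096 in VB6 day 5 and 0.597% ± 0.0208 in vehicle day 7 (SD, n = 3). Rpl39l made up 12.5% ± 0.567 of its pair with Rpl39 in ES, 11.6% ± 0.469 in vehicle day 3, 2.51% ± 0.201 in VB6 day 5 and 1.05% ± 0.124 in vehicle day 7. Rpl22l1 held 24.3% ± 1.67 of its pair with Rpl22 in ES and 27.3% ± 1.01 in vehicle day 7, and Rpl7l1 held 4.94% ± 0.141 and 4.73% ± 0.172 of its pair with Rpl7. Rps4l went from 9.80% ± 1.64 to 6.84% ± 0.638 beside Rps4x, and Rpl36al was at 31.9% ± 0.889 in ES, 38.3% ± 1.16 in vehicle day 3 and 29.4% ± 0.069 in vehicle day 7 beside Rpl36a. Rps27l, a target of p53, went from 24.7% ± 1.31 in ES to 20.0% ± 1.15 in vehicle day 7 beside Rps27, and Rps27rt from 2.83% ± 0.395 to 2.41% ± 0.0932. Rpl3l was at most 0.303% of its pair with Rpl3. The steepest falls were thus those of Rpl10l, Rpl39l and the scarcely detected Rpl3l.

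The promoters of these genes were searched for short sequences, and any part of these in the changes described here was not tested. RefSeq windows (GRCm38.p6, 250 bases before to 50 after the annotated start) matched 64 of the 86 genes by symbol, with 76 windows. A run of at least 8 C or T that begins with C lay within 25 bases of the start, on the gene's strand, in 44.7% of these windows and in 15.5% of all 32851 windows. The ETS core CCGGAAG, on either strand of the whole window, was in 32.9% and 8.86%. The YY1 core AAGATGG, searched likewise, was in 15.8% and 6.34%. Below are the 30 bases around the start for paralogs that fell, their partners and genes that stood apart in the short-fragment libraries, with the longest run of C or T that begins with C in capitals. The windows are Rps7 chr12:28635939-28635968 (-), Rpl28 chr7:4792950-4792979 (+), Rpl5 chr5:107900513-107900542 (+), Rpl10 chrX:74270801-74270830 (+), Rpl10l chr12:66284387-66284416 (-), Rpl39 chrX:37085208-37085237 (-), Rpl39l chr16:10170213-10170242 (+) and Rpl22l1 chr3:28805493-28805522 (+).
Rps7: gCTTCCggtttccacccacctacttccgct
Rpl28: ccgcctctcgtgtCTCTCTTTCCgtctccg
Rpl5: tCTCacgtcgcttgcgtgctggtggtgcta
Rpl10: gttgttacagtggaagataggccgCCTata
Rpl10l: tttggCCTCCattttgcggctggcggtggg
Rpl39: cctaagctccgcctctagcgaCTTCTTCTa
Rpl39l: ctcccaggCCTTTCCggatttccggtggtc
Rpl22l1: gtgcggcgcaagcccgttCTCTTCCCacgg
Within the 25 bases on each side that the search read, the longest run had 10 bases at Rpl28, 9 at Rpl5, 8 at Rpl39, Rpl39l and Rpl22l1, 5 at Rpl10l and Rps7, and 4 at Rpl10. The printed windows cover 15 bases on each side, so the runs in capitals are shorter for Rpl5, Rpl39l and Rpl10. The ETS core was in the windows of Rps7, Rpl39 and Rpl39l, and the YY1 core in that of Rps7. A match is a description of letters, and annotated starts may differ from those used in these cells.

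Few of the genes were called for VB6 against vehicle at day 3, though this depended on the fit. On the library scale the median log2 difference was 0.20, beside -0.01 over all genes, and 80 of 85 genes were above 0. A single gene was called, Rpl10l, which was lower (1.18% of the genes, where 4.25% of all genes were called and 2.77% were called lower). At an unadjusted p under 0.05, 45 genes were higher and 2 lower. With only the 6 libraries compared, 55 rose and 2 fell (67.1% of the genes, where 10.5% of all genes were called). With no filter 49 rose and 2 fell (59.3% of the genes, where 3.2% of all genes were called). With DESeq2 the calls were 2 higher and 1 lower (3.53% of the genes). Relative to the ribosomal protein median only Rpl10l was called as well, where 2.14% of all genes were. Its relative CPM was 22.5, 24.5 and 25.8 with VB6 and 32.9, 42.6 and 36.4 with vehicle, without overlap, and the log2 difference was -0.62 ± 0.14 (SE; edgeR, adjusted p = 0.019). On this scale the call was lost without vehicle day 3 replicate 2 or 3 and without VB6 day 3 replicate 1 or 2. On the library scale the difference was -0.42 ± 0.08 (edgeR adjusted p = 0.00293). For Rpl39l the library-scale difference was -0.02 ± 0.13 and the relative one -0.21 ± 0.12, and neither passed (edgeR adjusted p = 0.946 and 0.281).

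At day 5 nearly all ribosomal protein genes were higher with VB6 than with vehicle, and at day 7 nearly all were lower. In each of these comparisons 1 group consists of short-fragment libraries. At day 5 the call was higher for 78 genes and lower for 3 (Rpl5, Rpl10 and Rps12), or 91.8% called higher where 31.2% of all genes were (56.7% in either direction), with a median log2 difference of 0.81 beside 0.05 over all genes. At day 7 it was lower for 80 and higher for Rpl10 alone, or 94.1% called lower where 17.9% of all genes were (36.5% in either direction), with a median of -0.77 beside 0.01. With near-identical copies added to each gene, 78 were higher and 2 lower at day 5, and 0 higher and 80 lower at day 7. Rpl10 was thus no longer called higher at day 7. For the fit with copies added, the share of all genes called is not given here. The correction for GC content and length brought the medians to 0.40 and -0.37, with 66 genes higher and 4 lower at day 5 and 1 higher and 68 lower at day 7 (43.7% and 30.3% of all genes called with the correction). Rps3 differed by 0.94 ± 0.07 at day 5 and by -0.91 ± 0.07 at day 7, and Rps6 by 0.96 ± 0.08 and -0.62 ± 0.08 (log2, SE; edgeR, adjusted p from 2.25e-10 to 2.03e-06). Near-identical copies held 44.6% ± 3.29 of the counts of Rps6 and its copies in vehicle day 5 and 10.4% ± 1.16 in VB6 day 5 (SD, n = 3), and with copies summed its differences were 0.27 ± 0.07 and -0.31 ± 0.07 (edgeR adjusted p = 0.0011 and 0.000665). The share of counts from mitochondrial genes was highest in the short-fragment libraries, at 4.08 to 4.47% in vehicle day 5, 3.00 to 3.49% in VB6 day 7 and 1.51 to 2.94% in the others, and its part in the shift was not tested.

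Relative to the ribosomal protein median, 21 genes were higher and 29 lower with VB6 at day 5, and 18 higher and 22 lower at day 7. On this scale 65.2% and 71.2% of all genes were called, with medians over all genes of -0.78 and 0.81. The spread among the 82 genes that set the median was an SD of 0.48 at day 5 and 0.34 at day 7 on the log2 scale, against 0.12 at day 3. The departures of vehicle day 5 from VB6 day 5 and of VB6 day 7 from vehicle day 7 use separate libraries, and across these 82 genes their Pearson correlation was 0.79 and their Spearman correlation 0.69. Genes are no independent replicates, and both differences put short-fragment against longer-fragment libraries. Of the genes called at day 5, 62.0% were also called at day 7, and of those called at day 7, 77.5% were called at day 5. Of these 31 genes, 30 departed in the same direction in the short-fragment group, 13 higher and 17 lower. Beside these overlaps, 71.2% of all genes were called at day 7 and 65.2% at day 5. How far the calls of all genes overlapped, and how many shared a direction, is not given here. The correlation of the departures with GC content was -0.50 and -0.23, and with log2 effective length 0.10 and 0.33.

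Among the 13 genes that were higher in both short-fragment groups were Rpl10, Rpl5, Rps12 and Rpl4, and also Rpl7 and Rpl17, with differences, VB6 minus vehicle, of -0.48 and -0.45 at day 5 and 0.42 and 0.35 at day 7. Rpl10, a late-joining protein near the peptidyl transferase centre, had 739, 730 and 666 relative CPM in vehicle day 5 and 606, 680 and 608 in VB6 day 7, and between 260 and 358 in the other 15 libraries. Its difference, VB6 minus vehicle, was -1.31 ± 0.10 at day 5 and 1.16 ± 0.10 at day 7 (log2, SE; edgeR, adjusted p = 4.92e-11 and 1.14e-09). Rpl5 had 281, 307 and 283 in vehicle day 5 and 102, 109 and 105 in VB6 day 5, and then 167, 196 and 166 in VB6 day 7 and 119, 101 and 99.6 in vehicle day 7. Its differences were -1.46 ± 0.10 and 0.73 ± 0.10 (edgeR adjusted p = 8.71e-12 and 8.7e-07). Rps12 (-1.10 ± 0.09 and 0.53 ± 0.10) and Rpl4, a protein of the exit tunnel (-0.71 ± 0.09 and 0.55 ± 0.09), had the same signs. No libraries of these 4 genes overlapped between VB6 and vehicle at day 5 or day 7.

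Among the 17 genes that were lower in both were Rps7, Rpl29, Rpl28 and Rpl36. Rps7 had 208, 219 and 212 relative CPM in vehicle day 5 and 283, 243 and 317 in VB6 day 7, and between 455 and 611 in the other 15 libraries. Its difference was 1.38 ± 0.09 at day 5 and -0.88 ± 0.09 at day 7 (log2, SE; edgeR, adjusted p = 7.09e-12 and 1.56e-08). Rpl29 had 81.7, 78.4 and 71.9 in vehicle day 5 and 100, 78.5 and 114 in VB6 day 7, against 167 to 210 elsewhere, with differences of 1.37 ± 0.10 and -1.04 ± 0.10 (edgeR adjusted p = 2.37e-11 and 4.11e-09). Rpl28 had 225, 205 and 232 and then 370, 339 and 392, against 424 to 495 elsewhere (1.16 ± 0.07 and -0.41 ± 0.07). For Rpl36 the differences were 0.76 ± 0.08 and -0.58 ± 0.08, and the latter call was lost under the correction for GC content and length. The remaining genes named for these days had low levels: Rpl27rt differed by -1.38 ± 0.36 and 1.07 ± 0.35, Rps23rg1 by -1.24 ± 0.31 at day 5 and Rps27rt by -1.14 ± 0.36 at day 7 (edgeR adjusted p from 0.0011 to 0.00902).

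**Figure D4:**
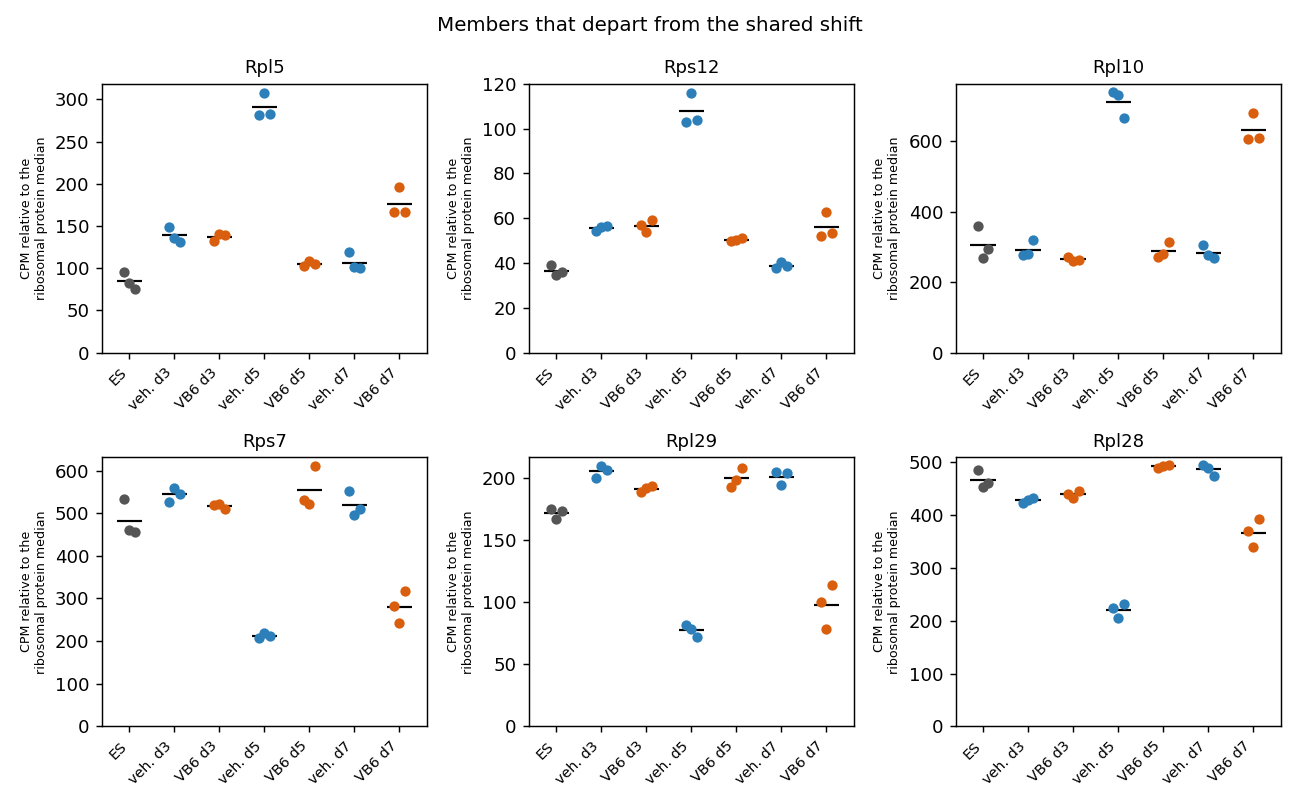
Relative CPM by group of 3 genes that are higher (Rpl5, Rps12, Rpl10) and 3 that are lower (Rps7, Rpl29, Rpl28) in the short-fragment groups; points are libraries and lines are group means. Rps7 is at 208 to 219 in vehicle day 5 and at 455 or more in the 15 longer-fragment libraries.

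**Figure D5:**
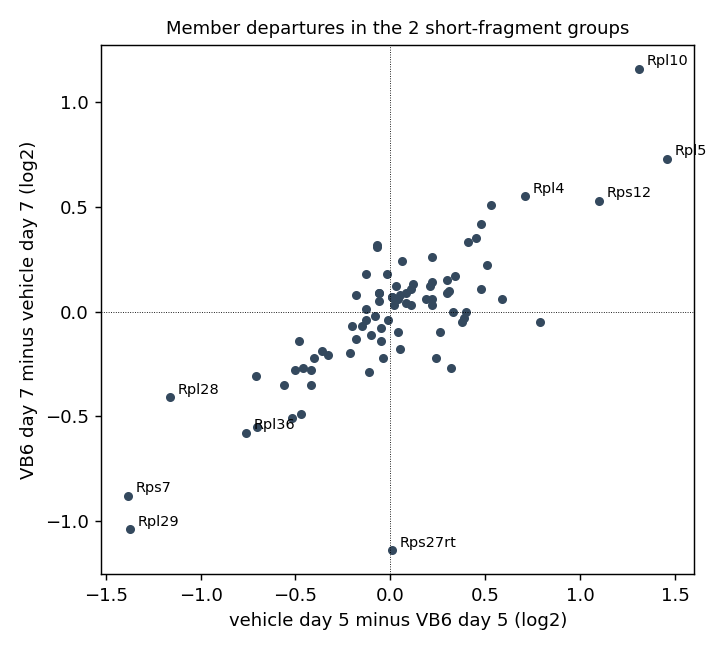
Each point is 1 of 82 genes; the horizontal axis is the log2 difference of vehicle day 5 from VB6 day 5 and the vertical axis that of VB6 day 7 from vehicle day 7, both relative to the ribosomal protein median. The 2 sets of differences share no library and have a Pearson correlation of 0.79.

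Near-identical copies took different shares of the reads in the short-fragment libraries. A search with blastn (at least 90% identity over 200 nt) found 180 expressed copies of 54 of the genes, with counts equal to 13.15% of those of the 86 genes. The copies of Rps7 held 10.9 to 15.9% of the counts of gene and copies in ES and 8.63 to 10.7% in VB6 day 5, but 55.2 to 68.0% in vehicle day 5 and 24.1 to 35.6% in VB6 day 7. The processed pseudogene Rps7-ps3 itself had 366, 467 and 262 relative CPM in vehicle day 5 and 59.1, 62.7 and 57.7 in VB6 day 5. With copies summed, Rps7 no longer differed by the test at day 5 (0.16 ± 0.10, edgeR adjusted p = 0.20), and at day 7 it differed by -0.62 ± 0.10 (adjusted p = 1.5e-05). The copies of Rpl28 held 49.3% ± 2.43 in vehicle day 5 and 15.2% ± 1.47 in VB6 day 5, and those of Rpl29 held 75.5% ± 1.44 and 48.5% ± 1.21 (SD, n = 3).

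For Rpl10 the shift ran the other way. Its copies, nearly all Rpl10-ps3, whose transcript aligned at 100% identity over 740 nt, held 39.1% ± 2.59 of the counts in vehicle day 5 and 42.8% ± 3.04 in VB6 day 7, and 62.7 to 68.7% on average in the other 5 groups. With copies summed its differences were -0.40 ± 0.07 at day 5 and 0.38 ± 0.07 at day 7 (edgeR adjusted p = 1.13e-05 and 2.18e-05), and those of Rpl29 were 0.37 ± 0.08 and -0.14 ± 0.08, the latter not called (adjusted p = 0.0959). Rpl28 had 0.48 ± 0.07 at day 5 (adjusted p = 6.84e-07) and -0.14 ± 0.07 at day 7, where the call was lost (adjusted p = 0.0506). By contrast Rpl5, with copies at most 0.186% of its counts in any library, had -1.40 ± 0.10 and 0.72 ± 0.10 with copies summed, and Rps12, whose copies held 50.8% ± 2.03 in vehicle day 5 and 21.4% ± 3.24 in VB6 day 5, had -1.71 ± 0.11 and 0.74 ± 0.11. Rpl3 changed sign when its copies, 67.0 to 82.5% of the counts, were added, with 0.42 ± 0.09 alone and -0.33 ± 0.09 summed at day 5, and -0.35 ± 0.09 and 0.38 ± 0.09 at day 7. Over the 82 genes the spread of the departures went from 0.48 to 0.40 at day 5 and from 0.34 to 0.30 at day 7, and the correlation between the days from 0.79 to 0.73.

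By the test over days, the VB6 effect differed between days for 82 of 85 genes on the library scale, where 60.03% of all genes were called, and for 55 relative to the ribosomal protein median, where 80.4% were called.

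The related genes of the pathway were counted on the library scale, where 56.7% of all genes were called at day 5 and 36.5% at day 7. The structural genes outside the name rule had the same direction as the ribosomal proteins: all 6 were higher with VB6 at day 5 (median log2 difference 0.75) and all 6 lower at day 7 (-0.76), with Rplp0, the stalk base, at 1.07 ± 0.05 and -0.86 ± 0.05. Of 77 mitochondrial ribosomal proteins, which serve the separate ribosome of that organelle, 58 were higher and 2 lower at day 5 and 53 lower at day 7 (77.9% and 68.8% called), with medians of 0.52 and -0.37. Of 14 tested elongation factors and other TOP mRNAs, 7 were higher and 4 lower at day 5 and 3 higher and 7 lower at day 7 (78.6% and 71.4% called), with medians of 0.17 and -0.14. Eef1d, an exchange factor of elongation, differed by 0.78 ± 0.05 and -0.58 ± 0.05, while Nap1l1 differed by -0.61 ± 0.06 at day 5. Medians of the last list were thus nearer 0 than those of the ribosomal proteins.

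Across the days of vehicle culture the factors that carry ribosomal proteins to the nucleus and protect them had larger median changes than the ribosomal proteins. Of 11 chaperones and importers, 7 rose and 1 fell from ES to vehicle day 3 (72.7% called, beside 64.9% of all genes; median 0.29, all genes 0.01), and 1 rose and 9 fell from vehicle day 3 to day 7 (90.9% called, beside 67.4%; median -0.48, all genes -0.01). Grwd1, the chaperone of Rpl3, had log2 changes of 0.94 ± 0.07 and -1.01 ± 0.07, and the importer Ipo5 0.84 ± 0.04 and -0.85 ± 0.04 (SE; edgeR, adjusted p from 2.78e-14 to 5.97e-11). With VB6 against vehicle at day 3, only Grwd1 of the 11 was called, at -0.29 ± 0.07 (edgeR adjusted p = 0.0191). This was 9.09% of the list, beside 4.25% of all genes, and the list median was -0.05. Of the 12 genes of mTORC1 and LARP1, 5 rose and 4 fell from ES to vehicle day 3, and 2 rose and 7 fell from vehicle day 3 to day 7. This was 75.0% in each comparison, near the 64.9% and 67.4% of all genes called. Larp1, which binds the TOP tract, rose by 1.03 ± 0.07 and then fell by 0.55 (adjusted p = 2.8e-12 and 8.4e-08). For VB6 against vehicle at day 3 only Larp1 of the 12 was called, at -0.24 ± 0.06 (edgeR adjusted p = 0.0398). This was 8.33% of the list, beside 4.25% of all genes, and the list median was -0.02.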

How the data were processed

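RNA was measured in 21 libraries of E14 cells. The authors deposited expected counts (estimated counts per gene, not normalized), and also TPM and FPKM for the same genes. The genome build was mm10, per the submitters' processing notes. For aligner and counting program, no source used here gives a name. The labels' protocols describe both total RNA and a small RNA enrichment, so library preparation is uncertain.

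Members and lists were chosen with earlier results of these data known. Expected counts, rounded, were tested with edgeR 4.0.16 (glmQLFit and glmQLFTest, R 4.3.3, limma 3.58.1) over all 21 libraries, with filterByExpr leaving 18901 genes and Benjamini-Hochberg adjustment over all of them; calls had an adjusted p under 0.05. The planned test assumed integer counts and was used unchanged. Library scale means TMM normalization; the relative scale used size factors that equalize the median of 82 members. Single values had exact two-sided permutation tests. The pipeline was tested on simulated data. Named genes were, per comparison, up to 4 highest and 4 lowest called members with at least 1 CPM in the higher group, the extremes by TPM and by variation, all paralog pairs, members with textbook roles, and up to 3 genes per list with the smallest p; genes with many reads in copies, and the genes whose promoter windows are printed, were added after their values were seen. Some genes that this rule names are not reported here. Annotation came from GENCODE M21 (mm10) and copies from blastn 2.17.0. Alternatives were DESeq2 1.42.0 and its size factors, other filters, a correction for GC content and length by splines, copies summed, other median sets, a replicate block, and leaving out each library.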

Additional observations from a re-analysis of the deposited data

Results flagged for a closer look

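The effect of VB6 differed between days, by a test over the 3 days in edgeR's quasi-likelihood fit with Benjamini-Hochberg adjustment, for 82 of 85 tested ribosomal protein genes on the library scale (60.03% of all genes) and for 55 relative to the ribosomal protein median (80.4% of all genes). Vehicle day 5 and VB6 day 7 are the short-fragment groups, so the difference between days and fragment length cannot be told apart. Among the genes named for the VB6 comparisons, the relative difference varied between days for Rps7 (adjusted p = 7.56e-13), Rpl10 (7.96e-13), Rpl29 (9.41e-13), Rpl5 (4.33e-12), Rpl28 (5.36e-12), Rpl36 (5.41e-10) and Rpl4 (1.94e-08). It also varied for the low genes Rpl27rt (adjusted p = 0.000518) and Rps23rg1 (0.00204), and for Rpl10l (0.0418). The relative difference of Rpl10l was -0.62 at day 3, -0.59 at day 5 and 0.06 at day 7. The signs at days 5 and 7 depended on the scale. On the library scale Rpl10l had 6.54, 7.63 and 6.81 CPM in VB6 day 5 and 6.21, 5.7 and 5.71 in vehicle day 5. At day 7 it had 1.87, 1.91 and 1.7 CPM with VB6 and 2.99, 3.15 and 3.05 with vehicle.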

How the results depend on the processing

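Depth limits what can be said of Rpl3l, Rpl27rt, Rps23rg1 and Rpl35rt, with means under 100 counts. Replicate numbers did not pair the samples: deviations of same-numbered libraries correlated from -0.564 to 0.635 over 63 pairs, and other-numbered ones from -0.512 to 0.666. With a replicate block the calls in the 6 comparisons were 15, 31, 53, 1, 81 and 81 on the library scale (in the order vehicle day 3 against ES, vehicle day 7 against day 3, VB6 day 5 against day 3, VB6 against vehicle at days 3, 5 and 7) and 12, 25, 9, 1, 49 and 38 on the relative scale, and the test over days called 82 and 53. Where a count below differs from the reported one, the cause was not tested.

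On the library scale the calls for vehicle day 3 against ES, 15 as reported, were 27 with no filter and 52 with the correction for GC content and length. They were 12 to 30 leaving out 1 library (26 without ES replicate 1 and 30 without ES replicate 3). Of all genes, 28.7% were called with no filter and 73.4% with the correction. The calls for VB6 day 5 against day 3 were 28 to 62 leaving out 1 library (28 without VB6 day 5 replicate 3). Those for VB6 against vehicle at day 3, 1 as reported, were 51 with no filter, 2 with the stricter filter and 5 with the correction. They were 57 with only the 6 libraries compared, 3 with DESeq2, and 1 to 3 leaving out 1 library (3 without vehicle day 3 replicate 1). Of all genes, 3.2% were called with no filter, 8.45% with the correction and 10.5% with only the 6 libraries. Relative to the ribosomal protein median, calls for vehicle day 3 against ES were 8 with no filter, 49 with the correction, 8 with only the 6 libraries, 23 with DESeq2 and 9 to 23 leaving out 1 library (23 without ES replicate 1). Of all genes, 24.4% were called with no filter, 72.3% with the correction and 46.8% with only the 6 libraries. For vehicle day 7 against day 3 the calls were 14 with no filter and 50 with the correction, beside 26.2% and 73.1% of all genes. For VB6 day 5 against day 3 the calls were 6, 40 and, with DESeq2, 22. Of all genes, 21.3% were called there with no filter. In these comparisons the share of all genes was above that of the ribosomal protein genes with no filter and with the correction. For DESeq2 the share of all genes is not given here. For VB6 against vehicle at day 3 the calls were 2 with no filter, 5 with the correction and 7 with only the 6 libraries. Of all genes, these fits called 3.4%, 9.33% and 21.7%. There was 1 call with DESeq2 and 0 to 1 leaving out 1 library. In the 4 cases of 0 calls by edgeR, 2 to 3 genes had an unadjusted p under 0.05. For VB6 against vehicle at day 7 the calls were 26 with no filter, where 31.0% of all genes were called.

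In place of counts, summed FPKM gave differences in the share of -0.986 percentage points for vehicle day 3 against ES, 0.259 for vehicle day 7 against day 3, and 1.39, 8.33 and -6.98 for VB6 against vehicle at days 3, 5 and 7. With a pseudocount of 0.1 the log2 balance of vehicle day 7 minus ES was -4.5 for Rpl3l over Rpl3 and -4.11 for Rpl10l over Rpl10. Of 1084 values of single genes, 1030 kept direction and call, 52 kept direction and lost the call, and 2 turned: with the correction, Rpl10l at day 5 on the library scale was -0.11 and Rps27l between VB6 days 3 and 5 was 0.31. These values belong to 75 results of single genes and do not cover every gene and comparison. Changes with copies summed that lie outside them are the turned sign of Rpl3 and the lost day 7 calls of Rpl28 and, on the library scale, Rpl10.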
